A study of Mus musculus with 8 samples.

Results

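The genes described here encode collagens, laminins and integrins, the fibres and sheets of the extracellular matrix and the receptors that bind them. Acetylation of lysine 27 of histone H3 (H3K27ac), which is found at enhancers and promoters in use, was measured around them in mouse embryonic stem cells by CUT&Tag, in which an antibody directs a transposase to the mark and the tagged DNA is sequenced. A region belonged to the set when the gene with the nearest transcription start site (TSS) had a symbol of the Col, Lama, Lamb, Lamc, Itga or Itgb families and the start site lay within 100 kb. This took 440 of the 112137 regions in the deposited table and 68 genes. The set held 409 regions of 62 genes with a value above 0 in all groups. The choice used names and distances and no measured value.

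The 8 libraries fell into 4 groups of 2. Cells were naive or formative, and were either wild type (WT, the R1 line) or lacked both MLL3 and MLL4 (double knockout, DKO, for which no line is named). These proteins, the products of Kmt2c and Kmt2d, methylate lysine 4 of histone H3 and are known for their work at enhancers. Naive cells were kept in LIF with 2 inhibitors and formative cells were taken 63 hours after these were withdrawn. Per the design text, both replicates of a group were grown and prepared separately. The table also holds levels of H3K4me1, the enhancer mark that MLL3 and MLL4 deposit, and of RNA, which come from libraries outside the series. The RNA columns cover WT, DKO, dCD (catalytically dead MLL3 and MLL4) and CKO, whose genotype is not defined in the sources used here.

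Laminins are trimers of an alpha, a beta and a gamma chain, and the trimer of Lama1, Lamb1 and Lamc1 products is the first laminin of the embryo. Together with type IV collagen it forms the basement membrane that underlies the epiblast, the tissue to which formative cells correspond. Integrins are pairs of an alpha and a beta chain that bind this matrix outside the cell and link it to the cytoskeleton, and Itgb1 supplies the beta chain for most laminin, collagen and fibronectin receptors. Fibrillar collagens and most leukocyte integrins are known from other tissues than the early embryo.

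The data on which most statements rest have different strengths. The authors' DiffBind comparison of formative with naive WT cells used the replicates and gives an adjusted p per region. A region is said to have risen or fallen only where that p was under 0.05. The H3K27ac, H3K4me1 and RNA levels are 1 deposited log2 value a group, with no SD and no n, so a difference that involves DKO cells has no replicate check. For these, a median over a gene's regions was called higher or lower at 2-fold or more (1 on the log2 scale). The number of reads per library is not in the columns used, so depth is unknown. The H3K27ac level of a region falls with its width, and levels are therefore set side by side only within a region.

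Of the 440 regions, 292 (66.4%, against 58.9% of all regions) were labelled intronic, 103 intergenic and 10 promoters (2.27%, against 4.94%). A total of 238 regions overlapped the gene they were assigned to and 100 overlapped only another coding gene. The file's Col4a1 and Col4a2 are the clearest case. These genes lie head to head on chromosome 8, and all 8 regions listed for Col4a1 lay in the Col4a2 gene, while 14 of the 15 listed for Col4a2 lay in Col4a1. The regions are described below as those of 1 locus, while counts of genes and gene medians keep the 2 names as the file has them, so that a median under the name Col4a2 describes regions mostly in Col4a1. Likewise 7 of the 30 regions listed for Itga9 lay in Golga4. At the limit of 100 kb, a region 98663 bases from an Itga9 start was the last inside, and one of Col8a1 at -103598 bases was the first outside. In the authors' deposited table their log2 folds for formative over naive WT were 3.28 and 1.93.

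The targeted genes were checked through RNA only. Kmt2c was lower in DKO than in WT by deposited log2 values of -1.15 in naive and -0.91 in formative cells, and Kmt2d by -0.72 and -0.84. The columns do not show which part of each transcript was counted. Of 6 pluripotency markers, 5 exceeded the median gene in naive WT, formative WT and formative DKO RNA, and 4 in naive DKO RNA. Pou5f1 was below the median gene in all of these, at 3.25 in naive WT, 2.84 in formative WT, 2.49 in naive DKO and 2.64 in formative DKO. Utf1 was below it in naive DKO, at 3.33 against 6.05 in naive WT. Of 8 markers of primitive or parietal endoderm, the embryonic cells known for abundant laminin and type IV collagen, 2 had an RNA value. Gata6 was at -1.59 in naive WT, -0.76 in formative WT and -0.54 in naive DKO, and Dab2 at 1.79 in naive WT, 3.79 in formative WT and 4.64 in naive DKO. The summed RNA of these 2 was 1.92, 3.85, 4.67 and 4.14 on the log2 scale in naive WT, formative WT, naive DKO and formative DKO. Of 9 fibroblast markers 4 had RNA, and none exceeded the median gene in any group; their sum went from 2.48 in naive WT to 3.55 in formative WT, 2.85 in naive DKO and 4.13 in formative DKO. Of 6 trophoblast markers 3 had RNA, with sums of 6.93, 4.68, 7.20 and 4.34, nearly all of it Tfap2c. Of 4 white blood cell markers 1 had RNA (Spi1, at 0.99, -0.27, -0.25 and -0.82). The part of these cell types in the results below was not tested.

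Sequences are shown for 4 regions and 1 promoter on which the account turns. Each region had the smallest adjusted p of its gene. The genes are a laminin gene that gained the mark, one that lost it, the collagen gene with the largest median loss, and Itgav. The Itgav region fell in WT but was higher in formative than in naive DKO, where no replicate check exists. The promoter is that of Itgb1, which kept its mark. For each region the central 150 bases are given, on the plus strand of mm10, read from the reference genome. Capitals mark a match to a searched motif. The motifs, searched on both strands, were TGANTCA (AP-1), GGAATG (TEAD), ATGCAAAT (octamer), TCAAGGTCA (ESRRB), AACCNGTT (GRHL) and GGATTA (OTX); the Itgb1 promoter was searched for GGGCGG (GC box), CCAAT and TATAAA. No match overlapped another.
Lamb1 intron, chr12:31271719-31271868: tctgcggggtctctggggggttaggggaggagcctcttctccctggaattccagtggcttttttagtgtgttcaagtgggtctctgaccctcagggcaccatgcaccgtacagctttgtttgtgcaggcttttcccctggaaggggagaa
Lamc1 intron, chr1:153320994-153321143: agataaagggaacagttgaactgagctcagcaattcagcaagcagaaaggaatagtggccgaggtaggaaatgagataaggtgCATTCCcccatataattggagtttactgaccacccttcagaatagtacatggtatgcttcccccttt
Col13a1 intron, chr10:61929523-61929672: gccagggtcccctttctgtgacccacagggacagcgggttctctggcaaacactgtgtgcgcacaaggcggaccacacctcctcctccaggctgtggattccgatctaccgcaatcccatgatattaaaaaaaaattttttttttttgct
Itgav upstream, chr2:83710297-83710446: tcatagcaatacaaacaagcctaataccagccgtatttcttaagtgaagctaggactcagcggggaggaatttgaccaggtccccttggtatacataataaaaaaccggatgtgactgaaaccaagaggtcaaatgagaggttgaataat
Itgb1 promoter, chr8:128685404-128685653, plus strand, the 250 bases before the RefSeq start: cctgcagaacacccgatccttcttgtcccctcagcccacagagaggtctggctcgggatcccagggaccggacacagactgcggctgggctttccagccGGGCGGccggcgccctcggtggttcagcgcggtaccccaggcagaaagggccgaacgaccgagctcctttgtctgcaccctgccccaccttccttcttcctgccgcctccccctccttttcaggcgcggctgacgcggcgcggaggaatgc
The Lamc1 window held 1 TEAD match (the reverse complement, CATTCC), and the other 3 region windows held none of the 6 motifs. A TEAD match was present in 7.27% of the 440 windows and in 8.15% of the windows of all regions. For the promoters, 48 of the 68 genes were found in the RefSeq table. A GC box was present in 50.9% of their 53 promoters and in 32.7% of all 32851, a CCAAT match in 26.4% against 33.8%, and a TATAAA match in 9.43% against 12.4%.

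In WT cells, regions of these genes gained H3K27ac on the way to the formative state more often than they lost it. By DiffBind in the authors' deposited table, 120 of the 440 regions rose (27.3%, against 20.8% of all regions) and 57 fell (13.0%, against 15.8%). Many of these came from a few genes with many regions. Col18a1 had 17 of 33 regions rise, Itga9 14 of 30, Lamb1 9 of 16 and Col4a2 9 of 15, and Lamc1 had 13 of 28 fall. The region shares therefore do not describe every gene of the set. By gene, 32 of the 68 had only regions that rose (47.1%, against 34.4% of all genes with a region in reach) and 7 had only regions that fell (10.3%, against 22.6%). A further 15 had both and 14 had neither. The share that rose was above that of all regions among strong regions and near it among weak ones. Above the median DiffBind concentration, 28.8% of these regions rose and 22.7% fell (16.5% and 27.3% of all). At or below it, 26.0% rose and 4.96% fell (25.1% and 4.39% of all). Among the 238 regions that overlap their own gene, 74 rose and 26 fell.

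The gene medians of the pooled values leaned the same way. Of 62 genes, 35 were higher by 2-fold or more in formative than in naive WT cells and 7 were lower (36.6% and 14.3% of all genes), with a median over genes of 1.11 on the log2 scale against 0.50 for all genes. The median of all regions was itself shifted by 0.48. With that shift removed, 23 genes were higher and 10 lower, and after quantile normalization 24 and 11. These 2 scalings turned the medians of the laminins (0.32 as deposited) and of the alpha chains of laminin and RGD receptors below 0, so no direction is drawn for those families as a whole from the pooled values.

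**Figure D1:**
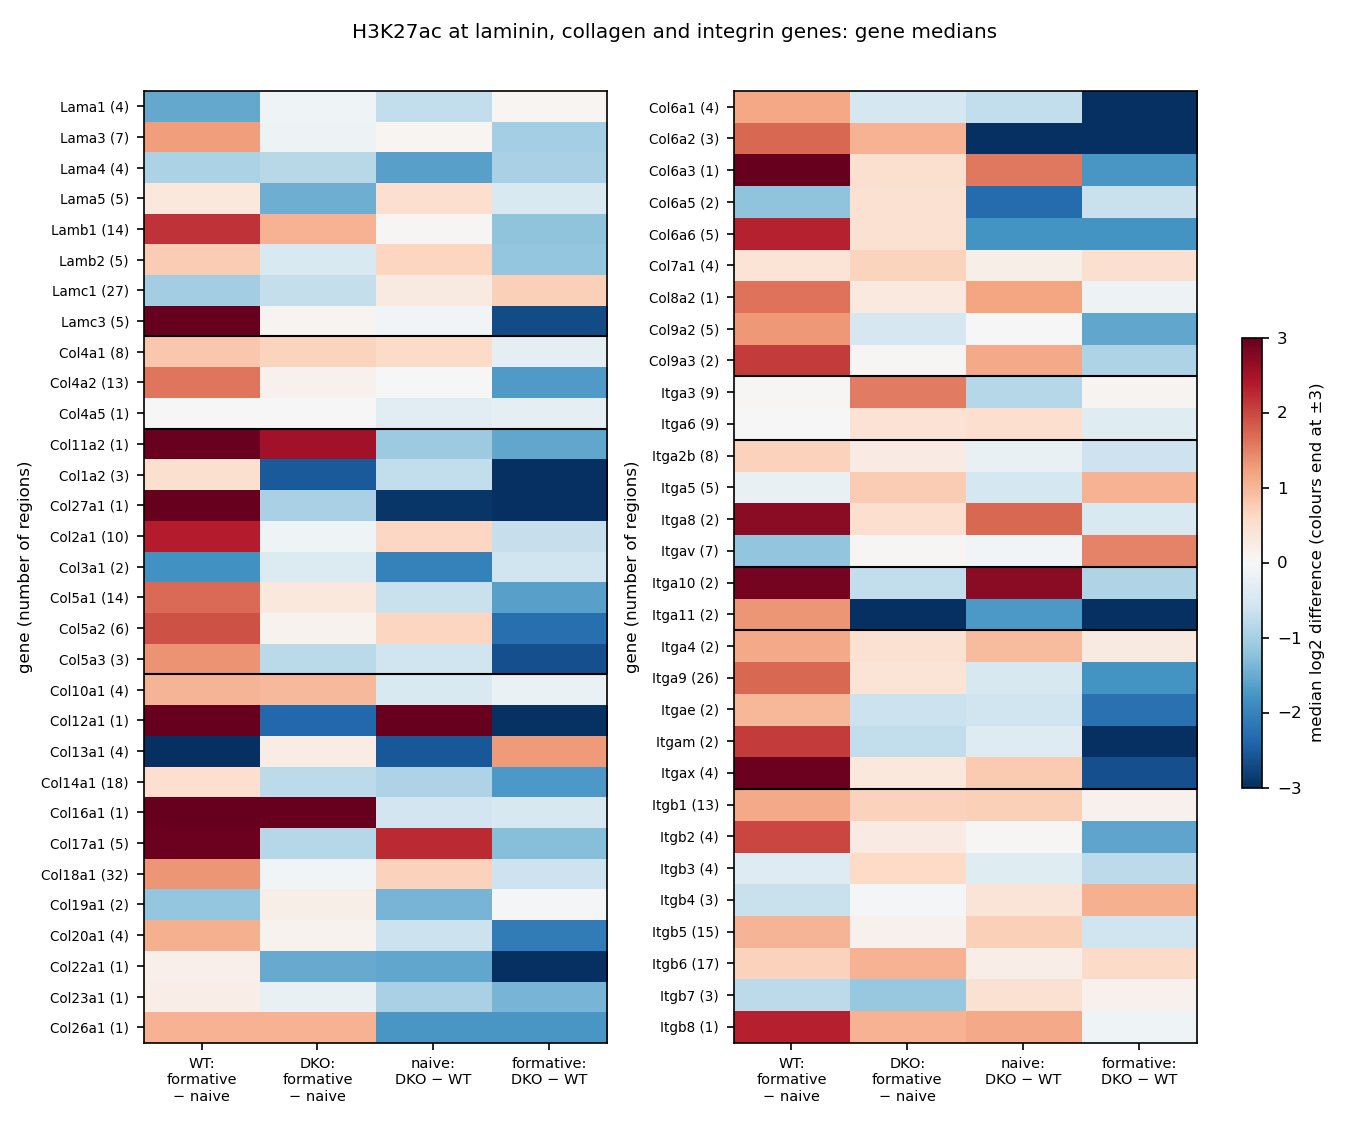
Median log2 difference of the authors' pooled H3K27ac values over the regions of each of 61 genes, in 4 comparisons; red is higher and blue is lower in the group named first. Horizontal lines separate laminins, basement membrane, fibrillar and other collagens, integrin alpha chains by ligand, and integrin beta chains, and the first column is red for 35 genes at 2-fold or more, while the last is blue for 29.

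Laminin genes held the sharpest contrast within the set. Of their 112 regions, 17 rose and 27 fell (15.2% and 24.1%), and 13 of the 27 were listed for Lamc1. For comparison with this and the family counts below, 20.8% of all regions rose and 15.8% fell. Lamb1, the beta chain of the first embryonic laminin, had 16 regions, of which 9 rose and none fell. Lamc1, the gamma chain of the same trimer, had 28 regions, of which 13 fell and none rose. Of the 5 regions of Lamc3, another gamma chain, 4 rose. Without Lamc1, 120 regions of the whole set rose and 44 fell.

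The Lamb1 regions lay along the gene body. The intronic region at chr12:31270898-31272688, whose centre is printed above, had pooled levels of 0.21 in naive WT, 7.76 in formative WT, 8.14 in naive DKO and 8.68 in formative DKO. Naive WT stood apart from the other 3 groups there, and the authors' deposited table gives a log2 fold of 7.81 (adjusted p = 1.31e-10). The naive DiffBind concentration at this region was -0.41, a value that recurs at regions of Col17a1, Col5a3 and Itgb3 as a floor. The fold therefore gives a direction, while its size rests on that floor. The region over the start of the gene, at chr12:31264810-31266144, had levels of 6.78, 8.63, 3.67 and 7.96 in the same order, with a log2 fold of 1.86 in the authors' deposited table (adjusted p = 0.00517). Over 14 regions, the gene's median difference between states was 2.17 in WT and 1.03 in DKO cells. RNA of Lamb1 went from 3.80 to 6.52 in WT and from 3.87 to 6.01 in DKO, from 3.61 to 5.73 in dCD and from 4.56 to 5.89 in CKO. All 4 genotypes were higher in the formative state, and DKO differed from WT by 0.07 in the naive and -0.51 in the formative state in the authors' deposited table.

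Lamc1 lost the mark along the gene body and at its promoter. The intronic region at chr1:153319293-153322843 had levels of 7.67 in naive WT, 4.89 in formative WT, 8.37 in naive DKO and 7.38 in formative DKO, and a log2 fold of -2.89 in the authors' deposited table (adjusted p = 4.65e-24). The promoter at chr1:153331755-153334577 had levels of 8.58, 7.24, 9.04 and 8.97, with a log2 fold of -1.38 in the authors' deposited table (adjusted p = 0.00469). Formative WT was the lowest of the 4 groups at both. The 23 regions within Lamc1 had a median difference between states of -1.03 in WT and -0.81 in DKO; in formative cells DKO exceeded WT by a median of 1.01, and 12 of the 23 by 2-fold or more (11.2% of all regions). The 4 upstream regions with values in all groups went the other way, with DKO below WT by -0.82 in the formative and -1.83 in the naive state. Of the 23 regions within Lamc1, 11 fell in WT. The formative WT values are shared, so higher DKO values there are partly by construction. All regions that fell in WT had a median of 0.62 for formative DKO against WT. RNA of Lamc1 was 6.09 in naive and 5.15 in formative WT, 5.88 and 5.80 in DKO.

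Among the alpha chains, Lama1 belongs to the trimer of Lamb1 and Lamc1, and Lama5 to the laminin on which pluripotent cells are often grown. Lama1 had 5 regions, of which 2 fell and 1 rose. The one that rose, at chr17:67732524-67733416, had levels of 0, 8.59, 6.11 and 0 in naive WT, formative WT, naive DKO and formative DKO. It had a log2 fold of 6.45 in the authors' deposited table (adjusted p = 2.05e-05), whose size again rests on a naive DiffBind concentration at the floor of -0.41. Its region at chr17:67741156-67741897 was far stronger than its other regions in DiffBind concentration (11.68, against at most 5.96), with levels of 14.85, 13.56, 14.38 and 13.84 in the same order, and it fell by 1.29 in log2 fold in the authors' deposited table (adjusted p = 6.4e-05). RNA of Lama1 went from 3.32 to 1.22 in WT and from 3.18 to 1.21 in DKO, so that the RNA of the alpha and the beta chain of this trimer differed in opposite directions between states in both genotypes. Lama5 had 1 of 5 regions called, upstream of the gene at chr2:180232462-180239319, with levels of 8.03, 5.84, 8.32 and 5.90 and a log2 fold of -2.18 in the authors' deposited table (adjusted p = 2.22e-18). Here both naive values lay above both formative values, and WT and DKO lay close together in each state. Lama5 RNA was 5.56 in naive and 5.80 in formative WT, and 4.76 and 4.48 in DKO.

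**Figure D2:**
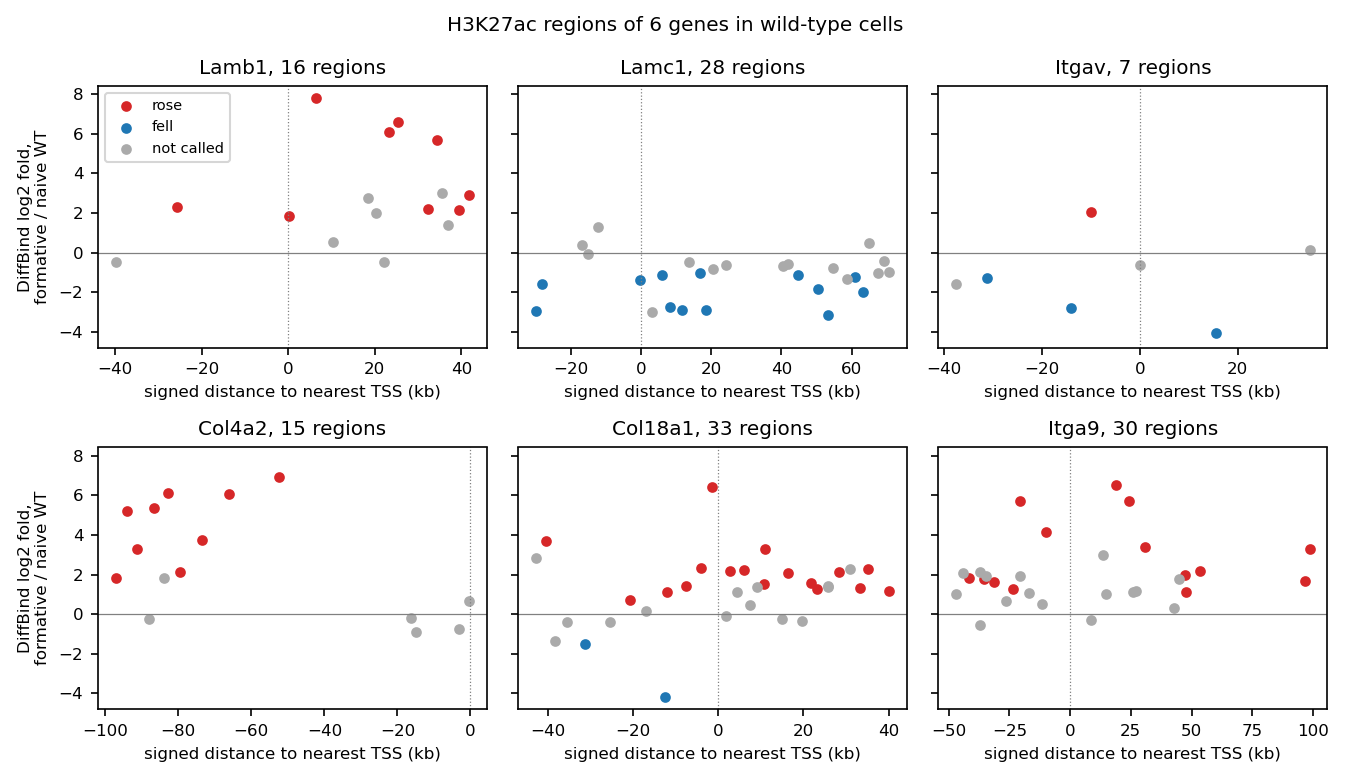
Each point is 1 H3K27ac region of the named gene, at its signed distance in kb from the nearest annotated start (x axis) and with the log2 fold of formative over naive WT from the authors' deposited table (y axis); red rose, blue fell and grey was not called at an adjusted p of 0.05. Lamb1 has 9 red and no blue points, Lamc1 13 blue and no red, and the red points of Col4a2 lie more than 50 kb from the shared start.

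Basement membrane collagens gained regions and lost none: 12 of 25 rose. Of these 11 were among the 23 regions of the Col4a1 and Col4a2 locus, whose products form the type IV collagen of most basement membranes, and the other belonged to Col4a3. Within the Col4a1 body, 9 of the 11 regions more than 50 kb from the shared start rose, with a median WT difference of 3.07 over 9 of them with values in all groups. On the same side, none of the 4 regions within 20 kb of the start rose or fell, and their median was -0.47. Among the 8 regions in the Col4a2 body 2 rose, with a median of 0.82 over the 8. One of these lay within 20 kb of the start, at chr8:11327554-11328605, with levels of 5.89, 8.53, 6.91 and 7.29 in naive WT, formative WT, naive DKO and formative DKO, and a log2 fold of 2.44 in the authors' deposited table (adjusted p = 0.0036). The strongest gain by p was at chr8:11218502-11219221 in a Col4a1 intron, with levels of 3.70 in naive WT, 10.13 in formative WT, 7.08 in naive DKO and 6.98 in formative DKO. The authors' deposited table gives it a log2 fold of 5.22 (adjusted p = 5.92e-09), and both DKO values lay between the WT values.

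In DKO cells these distant regions differed between states by a median of 0.32. In the formative state DKO was below WT by a median of -2.76, with 7 of 9 regions lower by 2-fold or more (39.3% of all regions) and none higher. Most of these regions rose in WT and the formative WT values are shared, so low values here are partly by construction. All regions that rose in WT had a median of -1.31 in this comparison. By contrast, Col4a1 and Col4a2 RNA was higher in DKO than in WT. Col4a1 RNA was 2.85 in naive and 3.91 in formative WT, against 4.55 and 4.89 in DKO. Col4a2 RNA was 1.77 and 1.75 in WT, against 3.76 and 3.60 in DKO. Both DKO values exceeded both WT values for each gene. In dCD cells Col4a1 was at 3.90 and 3.70 and Col4a2 at 2.39 and 2.74. Both endoderm markers with RNA were also higher in naive DKO than in naive WT, Dab2 at 4.64 against 1.79 and Gata6 at -0.54 against -1.59. In the formative state Dab2 was at 4.04 in DKO and 3.79 in WT, and Gata6 at 0.26 and -0.76. The Gata6 levels are low: the lowest deposited RNA value was -2.29 and the median gene was at 3.98 in naive WT. The part of these markers in this was not tested.

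Among fibrillar collagens, the cable-forming collagens of connective tissue, 12 of 43 regions rose and 3 fell. By gene 6 of 9 had only regions that rose. Col2a1, the collagen of cartilage and notochord, had 3 of 10 regions rise. Its region at chr15:98034710-98036312 had levels of 5.44, 8.17, 6.56 and 7.93, and a log2 fold of 2.75 in the authors' deposited table (adjusted p = 1.77e-05). RNA of Col2a1 went from 1.11 to 2.86 in WT and from 0.20 to 1.18 in DKO. Col5a1 had 3 of 16 regions rise and none fall. Col3a1 went the other way, and both of its regions fell. The region at chr1:45356934-45360599, intergenic, had levels of 8.65, 5.91, 6.82 and 5.41 and a log2 fold of -2.78 in the authors' deposited table (adjusted p = 2.51e-23). Naive WT was the highest of the 4 groups there.

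The remaining collagens had 34 of 109 regions that rose and 14 that fell, and 2 genes stand at opposite ends. Col18a1, a collagen of basement membranes that carries heparan sulphate chains and releases endostatin, had 33 regions, of which 17 rose and 2 fell. Of its 24 intragenic regions 15 rose and none fell, and both regions that fell were intergenic and upstream. Its wide intronic region at chr10:77106336-77115612 had levels of 3.92, 5.97, 4.39 and 4.75, and a log2 fold of 2.20 in the authors' deposited table (adjusted p = 1.42e-17). Within the gene the median difference between states was 1.46 in WT and -0.18 in DKO. RNA of Col18a1 went from 5.86 to 7.75 in WT, from 5.68 to 6.16 in DKO, from 6.59 to 7.21 in dCD and from 6.08 to 7.16 in CKO. WT had the largest of these 4 differences and DKO the smallest.

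Col13a1, a transmembrane collagen of cell contacts, had 4 regions and all fell. The intronic region at chr10:61928302-61930893 had levels of 8.37 in naive WT, 4.50 in formative WT, 6.20 in naive DKO and 6.01 in formative DKO, with a log2 fold of -4.01 in the authors' deposited table (adjusted p = 1.35e-21). The gene's median was -3.29 between WT states and 0.21 between DKO states. RNA of Col13a1 was 2.89 in naive and 1.57 in formative WT, against 0.39 and 0.60 in DKO, 2.79 and 2.23 in dCD, and 2.95 and 1.25 in CKO. Naive DKO was below naive WT in H3K27ac (-2.54) and in RNA, whereas the RNA of naive dCD and CKO lay beside that of WT. Col17a1, the hemidesmosome collagen of epithelia, had 3 of 5 regions rise. Its median differed between states by 2.95 in WT and by -0.86 in DKO, and it has no RNA value.

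Alpha chains of laminin receptors (Itga3, Itga6, Itga7) had 5 of 19 regions that rose and 1 that fell. Itga6 pairs with Itgb1 and is a usual surface marker of stem cells; of its 9 intronic regions 2 rose and 1 fell. Its region at chr2:71823674-71825075 had levels of 3.73, 8.07, 5.38 and 5.86 and a log2 fold of 4.39 in the authors' deposited table (adjusted p = 7.1e-05). RNA of Itga6 was 6.67 and 7.02 in WT, 7.10 and 7.22 in DKO, and 7.98 and 7.53 in dCD. Itga3 had 2 of 9 regions rise, the clearer at chr11:95056505-95057601 with levels of 6.73, 9.69, 7.68 and 8.58 (log2 fold 3.08, adjusted p = 1.94e-10, in the authors' deposited table). Its promoter had levels of 7.19, 7.21, 7.68 and 8.39 and was not called (adjusted p = 0.882 in the authors' deposited table).

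Alpha chains of receptors that bind RGD, the short peptide motif of fibronectin and vitronectin, had 3 of 22 regions that rose and 4 that fell. Of the 4, 3 belonged to Itgav, which had 7 regions and 1 that rose. Its upstream region at chr2:83709738-83711004 had levels of 9.62 in naive WT, 6.71 in formative WT, 7.48 in naive DKO and 8.42 in formative DKO. The authors' deposited table gives a log2 fold of -2.81 (adjusted p = 2.33e-10), and in DKO cells the formative value was the higher one. The Itgav promoter had levels of 7.88, 7.15, 9.52 and 9.56, both DKO values above both WT values, with no call between WT states (adjusted p = 0.338 in the authors' deposited table). Over all promoters, DKO exceeded WT by a median of 0.58 in naive and 0.79 in formative cells, and the Itgav promoter differed by 1.64 and 2.41. Between DKO states, 1 of the 7 Itgav regions was lower by 2-fold or more (-7.70) and 1 was higher (1.26). RNA of Itgav stayed between 4.10 and 4.64 in WT and DKO. Itga5, the alpha chain of the main fibronectin receptor, had no call among 5 regions.

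Among collagen-binding and leukocyte alpha chains no region fell, while some genes had none that rose. Of 7 regions of Itga1, Itga10 and Itga11, 3 rose (42.9%, against 20.8% of all regions), and none was of Itga11. Of 41 regions of Itga4, Itga9, Itgae, Itgam and Itgax, 18 rose (43.9%). Itgam had 2 of these, Itga4 and Itgax 1 each and Itgae none. Itga9 alone had 30 regions, of which 14 rose, 11 of them within the gene and 3 in Golga4. Its region with the smallest adjusted p was in Golga4, at chr9:118573731-118577041, with levels of 5.52, 7.09, 5.44 and 5.69 and a log2 fold of 1.61 in the authors' deposited table (adjusted p = 1.65e-06). Within the gene all 16 regions with values in every group were lower in formative DKO than in formative WT by 2-fold or more (39.3% of all regions). Of the 20 regions within the gene 11 rose in WT. The formative WT values are shared, so low values here are partly by construction. RNA of Itga9 did not follow the gain in WT: it was 2.22 in naive and 0.29 in formative WT, and 0.35 and 1.28 in DKO.

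Beta chains had 16 of 62 regions that rose and 8 that fell. Itgb1 had 4 of 13 rise and 1 fall, the last in Ccdc7a, downstream of Itgb1. The intronic region at chr8:128712790-128714882 had levels of 5.36, 7.31, 6.65 and 7.36 and a log2 fold of 2.00 in the authors' deposited table (adjusted p = 0.000111). The Itgb1 promoter had levels of 8.51 in naive WT, 8.26 in formative WT, 9.34 in naive DKO and 9.17 in formative DKO, with a log2 fold of -0.18 in the authors' deposited table (adjusted p = 0.772). RNA of Itgb1 went from 6.88 to 8.01 in WT, 7.34 to 8.61 in DKO, 6.71 to 7.95 in dCD and 6.91 to 8.39 in CKO, higher in the formative state in all 4. Itgb5, a partner of Itgav, had 4 of 15 regions rise and 2 fall. Itgb6 had 3 of 17 rise; its region at chr2:60688719-60689693 had levels of 5.99, 8.59, 10.38 and 10.80, both DKO values above both WT values. RNA of Itgb8 was -2.08 and 0.79 in WT and -1.93 and 1.49 in DKO.

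In DKO cells the shares of these genes that differed between the 2 states were near those of all genes. Of the 62 gene medians, 8 were higher by 2-fold or more in the formative DKO state and 6 were lower (9.68% and 10.7% of all genes), with a median of 0.11 against -0.06 for all genes. By region, 93 of 409 were higher and 89 lower (22.7% and 21.8%, against 16.6% and 17.9% of all regions). The 99 regions that rose in WT and had values in all groups had a median difference of 2.61 in WT and 0.34 in DKO. In DKO, 23 of these were higher by 2-fold or more and 18 were lower. The 57 that fell had medians of -2.09 in WT and -0.80 in DKO, and in DKO 22 were lower by 2-fold or more and 1 was higher. The WT values here chose the regions and are larger for that reason; all regions called in WT gave 2.59 and 0.31 for those that rose and -2.00 and -0.60 for those that fell. Lamb1 (1.03), Itga3 (1.55) and Itgb6 (1.05) were among the 8 higher genes, and Lama5 (-1.47), Col1a2 (-2.52) and Itga11 (-3.27) among the 6 lower, the last of these on 2 regions. The 7 regions within Itgb6 had a median of 0.49, under 2-fold, and the 7 listed for it in Rbms1 had 1.34.

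**Figure D3:**
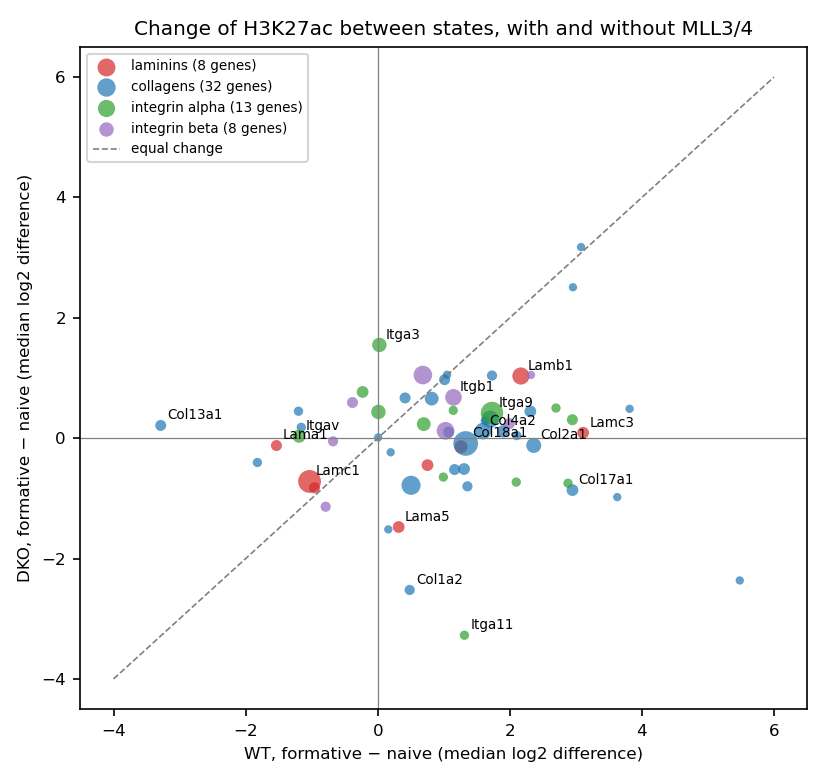
Median log2 difference of pooled H3K27ac between formative and naive cells for 61 genes, in WT (x axis) and DKO (y axis); the dot area grows with the number of regions and the dashed line marks equal change. Most dots to the right lie near 0 on the y axis: the median over the set is 1.11 in WT and 0.11 in DKO, and Lamb1 keeps 1.03 of 2.17.

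Between naive DKO and naive WT, 8 genes were higher by 2-fold or more and 12 were lower (14.2% and 20.0% of all genes), with a median of -0.07. Centred on the median of all promoters, which were 0.58 higher in DKO, the counts became 5 and 26. Centred on all regions, the median turned to 0.03, so no direction is drawn for the set. The lowest medians with at least 2 regions were those of Col6a2 (-3.04), Col13a1 (-2.54) and Col6a5 (-2.31), and the highest those of Itga10 (2.72), Col17a1 (2.23) and Itga8 (1.73).

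Between formative DKO and formative WT, 4 genes were higher and 29 lower (7.54% and 37.4% of all genes), with a median of -0.91 against -0.62 for all genes. Centred on promoters, which were 0.79 higher in DKO, the counts were 0 and 45; centred on all regions, 7 and 21; after quantile normalization, 9 and 19. Fibrillar collagens (6 of 8 lower, median -1.95) and the leukocyte and Itga9 group (4 of 5 lower, median -2.23) were below 0 under all 3 of these scalings, as were the other collagens (12 of 21 lower, median -1.40) and the alpha chains of collagen receptors (1 of 2 lower, median -3.61). The medians of basement membrane collagens, laminin receptor alpha chains and beta chains were not: they were -0.30, -0.14 and 0.00 as deposited and above 0 when centred on all regions. Genes with the lowest medians included Itga11 (-6.30), Col1a2 (-3.75), Col6a1 (-3.22), Itgam (-3.22) and Lamc3 (-2.69). The 4 higher genes were Itgav (1.48), Col13a1 (1.27), Itgb4 (1.06) and Itga5 (1.05). None of the regions listed for Itgb4, Col6a1 or Col1a2 overlapped the gene itself. The comparisons between genotypes share their WT values with the WT comparison of states, so a gene that gained in WT tends to be low here by construction.

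H3K4me1 at the same regions moved less. In WT, 1 gene median was higher by 2-fold or more in formative cells and none was lower (3.22% and 5.72% of all genes); in DKO, 2 were higher and none lower (0.83% and 0.764%). In DKO cells against WT, 2 were higher and 7 lower in the naive state (3.8% and 7.97% of all genes) and 2 and 7 in the formative state (6.83% and 8.08%). The 7 in naive cells were Lama1, Lama3, Col3a1, Col5a2, Col12a1, Col26a1 and Itga3. Col3a1, at -1.41 and -1.71, and Col26a1, at -2.46 and -1.09, were among the lower genes in both states. Lamb1 stood at -0.32 and 0.65, Col18a1 at -0.76 and -0.77, and the distant Col4a1 regions at -0.12 and 0.22. Single regions differed more often than gene medians. In WT, 10 of 409 regions were higher and 63 lower in formative cells (2.44% and 15.4%, against 5.0% and 15.7% of all regions). In DKO against WT, 20 were higher and 85 lower in naive cells (4.89% and 20.8%, against 4.59% and 18.9%). In formative cells 32 were higher and 80 lower (7.82% and 19.6%, against 10.5% and 15.5%). Across the 409 regions, the correlation of the H3K4me1 with the H3K27ac difference between DKO and WT was 0.14 in naive and -0.02 in formative cells, against 0.27 and 0.23 across all 105643 regions; neighbouring regions and a shared WT group make these points dependent.

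RNA was deposited for 41 of the 68 genes, and 8 of these had a highest level above that of the median gene (among them Lama5, Lamb1, Lamc1, Col4a1, Col18a1, Itga6 and Itgb1). By the authors' deposited table, 16 of the 41 were higher by 2-fold or more in formative WT and 7 were lower (17.1% and 9.65% of all genes). For DKO these counts were 12 and 2 (18.0% and 5.15%). The largest WT folds in the authors' deposited table were 2.87 for Itgb8, 2.72 for Lamb1 and 2.58 for Col1a2 and for Lama4, and those of Lama1 (-2.11) and Itga9 (-1.93) were among the lowest. Levels of Itgb8, Col1a2 and Lama4 were below the median gene in every group.

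Where RNA and H3K27ac could be set side by side in WT, 12 genes were 2-fold or more apart in the same direction in both measures, among them Lamb1, Col18a1, Itgb1, Lama1 and Col13a1. Lama3, Itga9 and Col6a5 differed in opposite directions. Of the 12, 10 were higher and 2 lower in both measures, among 38 genes with both values; over all 9600 such genes the counts were 939 and 350. Across 38 genes with both values, Pearson's r was 0.46 for the change of state in WT and 0.11 in DKO. For DKO against WT it was 0.21 in naive and 0.01 in formative cells. The points are genes of 1 set of columns, several of them neighbours.

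Against WT, DKO RNA was higher by 2-fold or more for 8 and lower for 8 of the 41 genes in the naive state (8.54% and 11.2% of all genes), and for 8 and 6 in the formative state (5.87% and 5.05%), by the authors' deposited table. Among those higher in both states were Col4a2, Itgb3, Itga8 and Col1a2. Col4a1 passed 2-fold in the naive state only, with folds of 1.70 and 0.99 in the authors' deposited table. The lower genes were led by Col13a1 (-2.50), Itgb7 (-2.21) and Itga9 (-1.87) in naive cells and by Col6a5 (-2.32), Col2a1 (-1.68) and Col18a1 (-1.60) in formative cells, as log2 folds in the authors' deposited table. In the formative state 4 genes had higher RNA with lower H3K27ac, each at 2-fold or more: Col4a2, Col1a2, Col5a2 and Col6a2. They were 4 of the 7 genes with higher RNA and an H3K27ac median, and over all genes this share was 177 of 544 (32.5%); the difference was not tested. Of the regions listed for these genes, 1 of 15 overlapped Col4a2, 0 of 3 Col1a2, 1 of 6 Col5a2 and 2 of 3 Col6a2. The H3K27ac medians of Col4a2, Col1a2 and Col5a2 thus describe mostly regions outside the gene whose RNA is given. Only Col27a1 was lower in both RNA and H3K27ac, on 1 region. The 4 genes with higher RNA were all below the median gene, which was at 4.13 in formative WT and 4.25 in formative DKO. Col6a2 was at -0.98 in formative WT and 0.23 in formative DKO, and Col6a5, named above, at 0.48 and -1.84. The lowest deposited RNA value was -2.29, so folds of such low levels are uncertain. Col5a2 RNA was -0.05 and -0.25 in WT, -1.45 and 2.62 in DKO and 0.51 and 1.92 in dCD. The summed RNA of 4 fibroblast markers was 4.13 in formative DKO, 3.55 in formative WT and 3.575 in formative dCD. Of these, Twist1 was at 3.76 in formative DKO and 2.71 in formative WT, Tbx15 at 1.45 and 0.37, and Pdgfrb at -0.52 and -1.17. Thy1 went the other way, at -1.03 and 1.79. The part of fibroblasts was not tested.

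**Figure D4:**
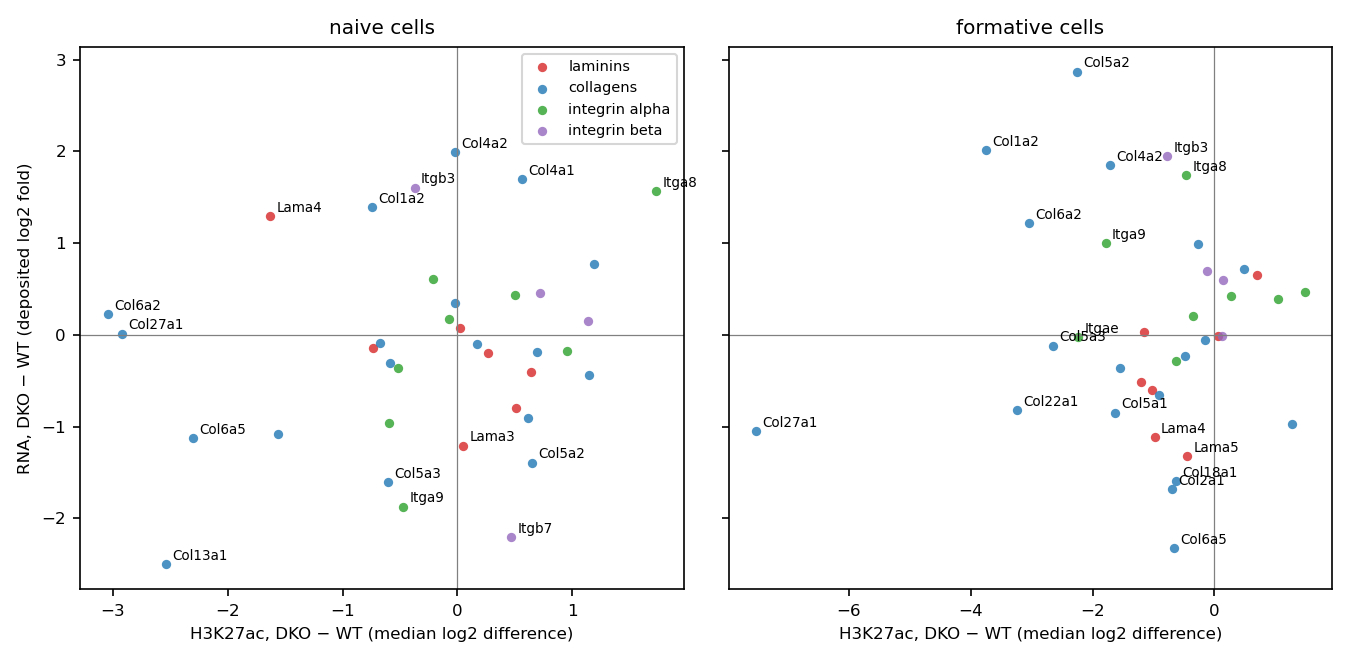
RNA log2 fold from the authors' deposited table (y axis) against the median log2 difference of pooled H3K27ac (x axis) for DKO minus WT, in naive (left) and formative (right) cells, for the genes with both values. In the formative panel Col5a2, Col1a2, Col4a2 and Col6a2 lie at the upper left, with higher RNA and lower H3K27ac. Their RNA levels are below the median gene in both formative groups. Most H3K27ac regions listed for Col4a2, Col1a2 and Col5a2 lie outside those genes.

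In cells with catalytically dead MLL3 and MLL4, by the authors' deposited table, 7 of the 41 genes were higher and 5 lower in naive dCD (8.05% and 5.19% of all genes), and 2 higher and 4 lower in formative dCD (4.72% and 3.62%). The comparisons of DKO and dCD share the WT values. Of the 16 genes at least 2-fold from WT in naive DKO, 7 were so in the same direction in naive dCD. For the formative state it was 5 of 14. In the formative state Col1a2 was at 0.98 in WT, 3.00 in DKO and 3.45 in dCD, and Col5a2 at -0.25, 2.62 and 1.92. By contrast, Itga8 was at -0.41 in WT, 1.33 in DKO and -0.48 in dCD. The endoderm marker Dab2 was at 5.63 in naive and 4.57 in formative dCD, against 1.79 and 3.79 in WT, and the summed RNA of Dab2 and Gata6 in naive dCD (5.67) was the highest of the 8 RNA groups. Its part in these differences was not tested. CKO differed from WT at 2 higher and 3 lower genes in the naive state (3.85% and 4.8% of all genes) and 2 and 4 in the formative state (3.64% and 4.78%), by the authors' deposited table.

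**Figure D5:**
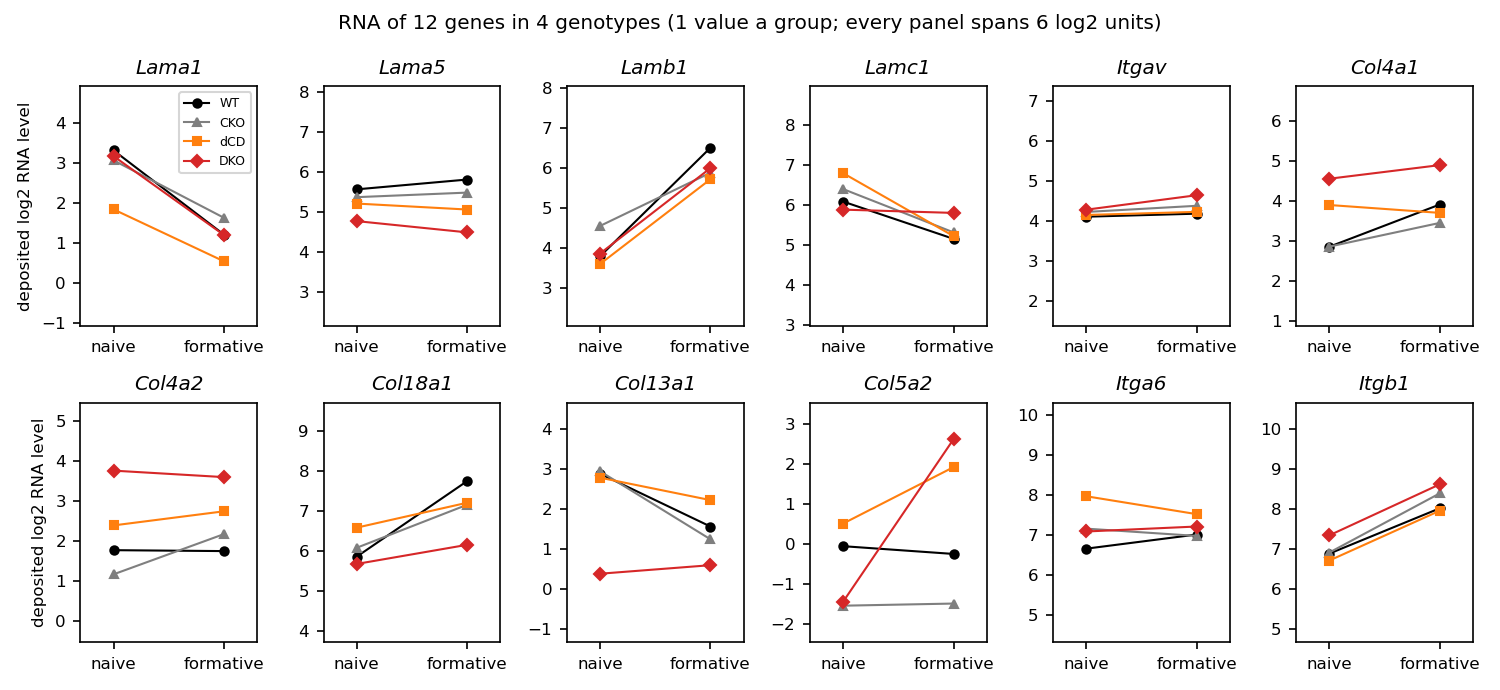
Deposited log2 RNA level (y axis, each panel spanning 6 log2 units) of 12 genes in naive and formative cells of 4 genotypes, 1 value a group with no error. Lamb1 and Itgb1 are higher in the formative state in all 4 genotypes, the DKO lines of Col4a1 and Col4a2 lie above WT, and that of Col13a1 lies below it.

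Other genes of the pathway, taken from lists of partners, differed in their balance of gains and losses. Of all regions, 20.8% rose and 15.8% fell. Of 138 regions of 16 basement membrane partners and other matrix genes, the authors' deposited table has 21 that rose and 41 that fell, and 3 genes only rose while 5 only fell. Nid1, which bridges laminin and type IV collagen, had 15 of 18 regions fall, and Fn1, the fibronectin gene, 9 of 16. Of 51 regions of 16 collagen processing genes, 11 rose and 4 fell, and 3 genes only rose while 1 only fell. Of 209 regions of 19 genes of the adhesion complex inside the cell, 40 rose and 43 fell, and 6 genes only rose while 3 only fell. Of 59 regions of 12 matrix protease and inhibitor genes, 12 rose and 11 fell, and 7 genes only rose while 3 only fell. The difference between these lists and the collagen, laminin and integrin genes was not tested.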

How the data were processed

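H3K27ac was profiled in 8 libraries, 2 in each of 4 groups. Trim Galore, Bowtie2, SEACR, deepTools, DiffBind and the mm10 build are named, per the submitters' processing notes, without versions or roles. All values come from 1 deposited table of 47 columns. Its H3K27ac, H3K4me1 and RNA levels are deposited log2 values, 1 a group, whose scaling between groups is not stated. Its DiffBind columns, deposited by the authors, give for formative against naive WT a log2 fold with its p-value, also adjusted by Benjamini-Hochberg over all regions, with other descriptors such as width and TSS distance as deposited. Deposited fold columns of the marks equalled differences of the levels to within 1e-05. The DiffBind fold correlated across regions at 0.98 with the WT and 0.19 with the DKO difference. Gene bodies came from GENCODE M21 on the same build.

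From these, differences of pooled values were taken for regions above 0 in all 4 groups (31 of the 440 were listed at 0 in at least 1) and reduced to a median per gene, with Python 3.11.15, pandas 2.3.3 and numpy 2.4.6. No test was run beyond the authors' own. The planned per-library fits need columns that the table does not have. The rest of the table gives the background percentages. Named genes were 12 basement membrane genes and receptors, the 6 largest medians each way per H3K27ac comparison with at least 2 regions, the 5 largest RNA folds each way, and per gene the region with the smallest adjusted p and the strongest promoter; others named were chosen after their values were seen. Results of 1 gene are not reported here by name; it is counted in the totals and left out of the plots. The members and lists were chosen with earlier results of these data known. Alternatives were other scalings, distance limits, summaries and thresholds. The scripts for gene medians and calls were tested on simulated data.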

Additional observations from a re-analysis of the deposited data

How the results depend on the processing

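Settings were changed one at a time. No paired analysis was possible because the columns hold 1 pooled value a group and carry no replicate number; for the same reason leaving out a replicate was not run. Depth is unknown, and no interval covers the pooled values.

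For formative against naive WT, the gene counts (35 higher, 7 lower, median 1.11) gave 3 lower and a median of 1.42 when centred on promoters, 11 lower and 0.59 after quantile normalization, and 23 higher and 0.63 when centred on all regions. For DKO, the median of 0.11 became 0.28 when centred on promoters, and a threshold of 0.5 gave 15 higher and 18 lower. For naive DKO against WT, centring on promoters gave 5 higher, 26 lower and -0.65, centring on all regions a median of 0.026, regions within 20 kb 0.16, regions listed at 0 included 13 higher, and a threshold of 0.5 gave 19 higher and 24 lower. For formative DKO against WT, the results were 0 higher, 45 lower and -1.70 centred on promoters, 9, 19 and -0.19 after quantile normalization, and 7 higher with -0.28 centred on all regions. There the median was -1.33 with regions listed at 0 and -0.59 within 20 kb, and means in place of medians left 1 higher gene.

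Of the regions called in WT (120 rose, 57 fell), 52 and 27 lay within 20 kb. In alternatives added after the data were seen, 57 of the regions that rose were above the median concentration, and 74 rose and 26 fell within the gene itself. Genes that only rose numbered 14 above the median concentration, and genes with both 6 within 20 kb, 8 above the median concentration and 5 within the gene itself.

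RNA at a threshold of 0.5 gave 20 higher and 4 lower genes for DKO formative against naive, and 16 and 12 for formative DKO against WT. Among genes above the median level the counts were 4 and 1 for WT states, 2 and 1 for DKO states, 2 and 0 for naive and 1 and 2 for formative DKO against WT. The H3K4me1 median for WT states was 0.15 within 20 kb. Of the values of single named genes under these settings, 453 kept their direction and side of 2-fold, 27 passed it newly, 34 lost it and 2 reversed: Col4a2 (-0.47) and Itgb5 (-0.51) in WT, both within 20 kb. Fewer regions enter that setting. The cause of the other changes was not tested.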

Other observations

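Several partner genes had many regions called in WT cells. Tns3, a tensin that links integrins to actin, had 17 of 28 regions fall and none rise in the authors' deposited table. Its RNA was 6.05 in naive and 4.48 in formative WT. Zyx, the gene of zyxin at focal adhesions, had all 5 regions rise, and its RNA went from 1.94 to 5.01. Fermt1 encodes a kindlin that activates integrins; its RNA went from 0.42 to 5.72 in WT and was 3.23 in naive DKO. Its paralogue Fermt2 had 7 of 20 regions fall and 1 rise. These genes were picked after their values were seen, from lists chosen with earlier results known.

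In the matrix list, Frem2 had 6 of 8 regions rise in the authors' deposited table while its median pooled difference was -0.38, since 5 of the 8 regions were listed at 0 in a group and left out of that median. The RNA of Fras1, a partner of Frem2 at the epithelial basement membrane, was -1.57 in naive WT, 3.14 in formative WT and -0.20 in naive DKO.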
